A study of Homo sapiens with 12 samples.

Results

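The USP17-like genes are near-identical copies of a gene for a deubiquitinating enzyme. The members described here are the 8 genes of the family that a row of the deposited array table names by exactly 1 gene symbol: USP17L12, USP17L15, USP17L18, USP17L19, USP17L1P, USP17L21, USP17L4 and USP17L6P. They are 8 of 22465 genes tested. They were chosen by their high log2 difference between RT112 cells treated with CM272 and untreated RT112, so that contrast is described for them with its error and carries no test. Each member has 1 row, and every single-symbol row of the family is a member. Other genes of the family, such as USP17L2 and USP17L10, appear only in rows that list several symbols, so the annotation and not their values keeps them out of the choice.

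Deubiquitinases cut ubiquitin from proteins and so act against their marking for degradation or signalling. USP17 enzymes are cysteine proteases of the ubiquitin-specific protease (USP) class. Their genes lack introns and lie in tandem repeats whose copy number differs between people. In human cells USP17 is known as a cytokine-induced, cell-cycle dependent gene whose protein acts on CDC25A, a phosphatase that drives cell-cycle entry, and on RCE1, a protease that processes Ras proteins. RefSeq lists 29 genes of the family, 23 on chromosome 4 and 6 on chromosome 8, and types 25 of them as protein coding. Of the members, 6 lie on chromosome 4 and 2, USP17L1P and USP17L4, on chromosome 8. USP17L6P is listed as a transcribed pseudogene. USP17L1P is an older name of USP17L1, which RefSeq lists as protein coding.

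RT112 and 5637 are established human bladder cancer cell lines. CM272 inhibits the histone methyltransferase G9a (EHMT2) and DNA methyltransferases. Whole-transcript arrays measured RT112 with CM272, 5637 with CM272 and untreated RT112 here, with 3 arrays per group. The treated cells received the compound at its IC50, and the labels give the untreated cells no treatment and name no vehicle. How long the cells were treated is not stated there. The replicates are numbered, with nothing on whether they came from separate cultures, so errors and p-values reflect only how these arrays vary. Bulk RNA cannot tell more cells that express a gene from more RNA per cell.

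A further 3 arrays of untreated 5637 were left out of the main fit, because their values are displaced from their rows. The family shows this directly. In the 9 arrays used, 6 of its rows held exactly the same value in each array, whereas the same 6 rows spanned 5.05 to 8.80 in untreated 5637. No comparison of treated with untreated 5637 was therefore made. The array medians over all rows lay between 4.40 and 4.44 in treated RT112, between 4.37 and 4.40 in treated 5637, and between 5.05 and 5.10 in untreated RT112. In treated RT112 2726 genes had exactly equal values in the 3 arrays, in treated 5637 3440 and in untreated RT112 0. None of the 8 members had equal values in any group. Some other genes named below did, such as NEIL2, USP5 and HDAC2 in treated RT112. GPR78, SH3TC1, CDC25A and RIGI did in treated 5637. Equal values tend to lower a gene's SE and p-value. No source used here says whether treated and untreated arrays were processed together, so a processing difference and the treatment cannot be told apart in these values. The epithelial markers KRT8, KRT18, KRT19, EPCAM, CDH1, GATA3 and KRT7 averaged between 8.46 and 14.48 in treated RT112, between 7.57 and 13.32 in treated 5637 and between 8.16 and 13.88 in untreated RT112. The 5 measured leukocyte markers averaged at most 4.61, 4.62 and 5.29 in those groups, and the 6 stromal and endothelial markers at most 5.34, 7.25 and 5.43, the 7.25 being COL1A1 in treated 5637.

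All 8 members stood near the bottom of the scale in untreated RT112 and far above it in both treated lines. Their values lay between 10.42 and 14.22 in treated RT112, between 10.45 and 14.10 in treated 5637, and between 3.50 and 4.40 in untreated RT112. The untreated values lay below the median of every untreated array. The table holds no detection calls, so whether those values are background is not known, and the differences are lower bounds where they are. The smallest gap between a member's lowest treated and highest untreated RT112 array was 6.41. In all 8 members the 3 treated RT112 arrays lay above the 3 untreated ones, as they did for 11.1% of all genes tested. This contrast chose the members.

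**Figure D1:**
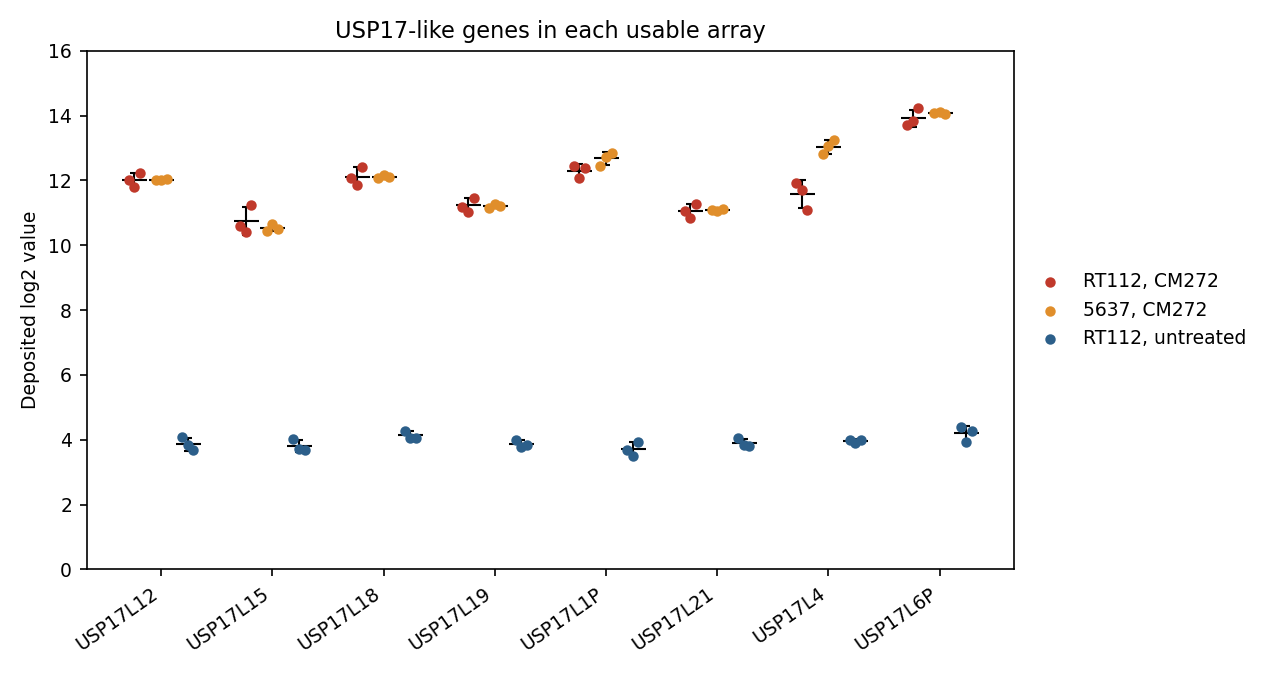
Deposited log2 values (vertical axis) of the 8 members in 9 arrays, with 3 points per group and the mean and SD in black. Treated RT112 lies between 10.42 and 14.22 and treated 5637 between 10.45 and 14.10, while untreated RT112 lies between 3.50 and 4.40.

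Among the protein-coding copies of chromosome 4, USP17L12 stood at 12.03, 11.80 and 12.22 in treated RT112, at 12.00, 12.01 and 12.05 in treated 5637, and at 4.08, 3.84 and 3.68 in untreated RT112. Its treated arrays of both lines interleaved and none came near the untreated ones. The log2 difference between treated and untreated RT112 was 8.15 ± 0.12 (SE). USP17L18 stood at 12.07, 11.85 and 12.42 in treated RT112, at 12.08, 12.15 and 12.11 in treated 5637, and at 4.28, 4.07 and 4.07 in untreated RT112. Its log2 difference in RT112 was 7.97 ± 0.13, and its treated arrays again interleaved. USP17L19 stood at 11.18, 11.03 and 11.47 in treated RT112, at 11.16, 11.26 and 11.20 in treated 5637, and at 3.999, 3.77 and 3.83 in untreated RT112. The difference in RT112 was 7.37 ± 0.11.

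USP17L21 stood at 11.07, 10.84 and 11.26 in treated RT112, at 11.08, 11.06 and 11.12 in treated 5637, and at 4.05, 3.84 and 3.80 in untreated RT112. Its log2 difference in RT112 was 7.16 ± 0.11. As for USP17L12, USP17L18 and USP17L19, treated replicate 2 was the lowest of the RT112 arrays and treated replicate 3 the highest. USP17L15 stood at 10.59, 10.42 and 11.25 in treated RT112, at 10.45, 10.66 and 10.49 in treated 5637, and at 4.02, 3.71 and 3.67 in untreated RT112. It had the smallest difference in RT112 of the 8, 6.96 ± 0.20, and its treated RT112 replicate 3 stood above the other two by more than the whole span of the treated 5637 arrays.

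The pseudogene USP17L6P had the largest difference of the 8. It stood at 13.72, 13.83 and 14.22 in treated RT112, at 14.07, 14.10 and 14.05 in treated 5637, and at 4.40, 3.93 and 4.26 in untreated RT112. The log2 difference in RT112 was 9.73 ± 0.15, the highest among all 22465 genes tested. Levels of different probe sets depend on their probes, so a higher value of USP17L6P than of another copy does not show more RNA.

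The members of chromosome 8 behaved less alike in the treated lines. USP17L1P stood at 12.45, 12.07 and 12.39 in treated RT112, at 12.46, 12.73 and 12.84 in treated 5637, and at 3.68, 3.50 and 3.93 in untreated RT112, with a log2 difference in RT112 of 8.60 ± 0.15. USP17L4 stood at 11.91, 11.71 and 11.08 in treated RT112, at 12.81, 13.07 and 13.24 in treated 5637, and at 3.997, 3.90 and 4.01 in untreated RT112. Its log2 difference in RT112 was 7.60 ± 0.20. For both copies every treated 5637 array lay above every treated RT112 array. For USP17L1P the lowest treated 5637 array, at 12.4576, barely exceeded the highest treated RT112 array, at 12.4509.

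Between the treated lines, 6 of the 8 members overlapped, all 6 of chromosome 4. The 2 that did not overlap were those of chromosome 8, whereas 43.0% of all genes tested had no overlap between the treated lines in one direction or the other, and for 21.3% treated 5637 was the higher. USP17L4 averaged 13.04 ± 0.22 in treated 5637 and 11.57 ± 0.43 in treated RT112 (SD, n = 3 each), a log2 difference of 1.47 ± 0.20 (SE). USP17L1P averaged 12.68 ± 0.20 in treated 5637 and 12.30 ± 0.21 in treated RT112, a difference of 0.37 ± 0.15. For the 6 members of chromosome 4 the difference, treated 5637 minus treated RT112, lay between -0.22 ± 0.20 for USP17L15 and 0.15 ± 0.15 for USP17L6P, close to or within 1 SE of 0 in each. The treated RT112 arrays had a part in choosing the members, so these differences carry no test. Over the 8 members the median was 0.02, beside -0.01 over all genes tested. Without treated RT112 replicate 2 that median was -0.088, and without treated RT112 replicate 3 it was 0.14. With each array centred on its median it was -0.024, so its sign depends on single arrays and on the scaling. Set against untreated RT112, which differs from treated 5637 in both line and treatment, treated 5637 was higher by 6.74 for USP17L15 at the least and by 9.88 for USP17L6P at the most. This comparison shares its untreated arrays with that of RT112.

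**Figure D2:**
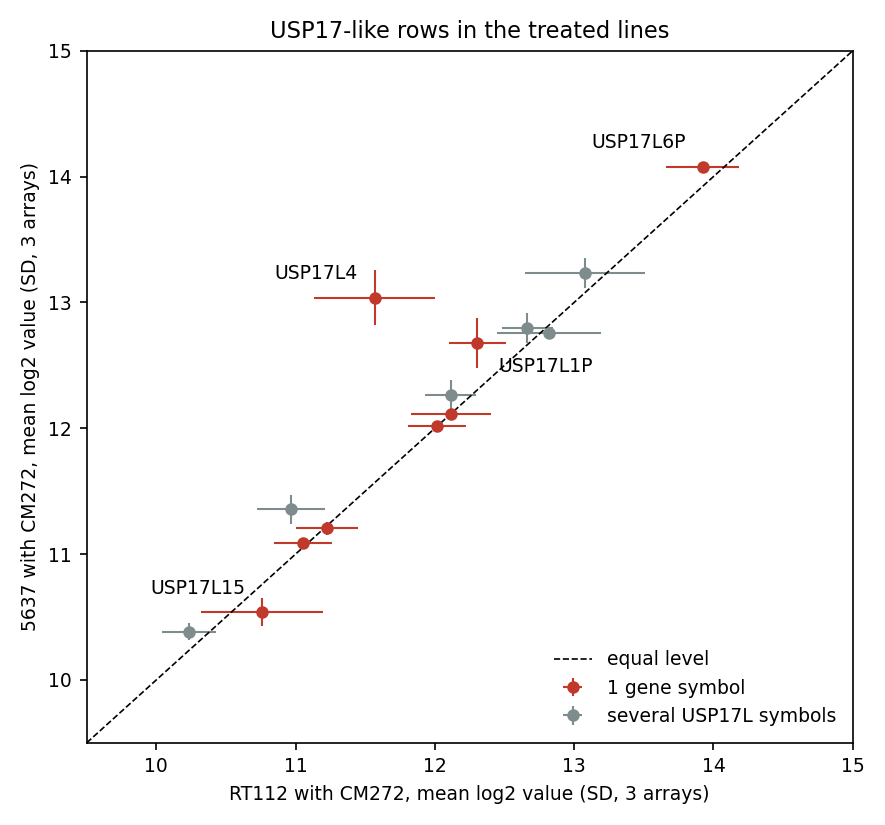
Mean log2 value in treated 5637 (vertical axis) against treated RT112 (horizontal axis) for the 14 family rows with distinct values, with SD over 3 arrays and a dashed line of equal level. USP17L4 lies farthest above the line, at 13.04 against 11.57, and the chromosome 4 members lie along it.

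The other 11 rows of the family each list several USP17L symbols and name no single gene. Because of the 6 identical ones they hold 6 distinct sets of values. Their values lay between 10.09 and 13.37 in treated RT112, between 10.31 and 13.35 in treated 5637, and between 3.55 and 5.36 in untreated RT112. Their log2 differences in RT112 lay between 6.33 and 8.82, a range that overlaps that of the members. The row that lists 6 symbols of chromosome 8 includes USP17L4, USP17L1 and USP17L2, the copy also called DUB3. It stood at 13.27, 12.59 and 13.37 in treated RT112, at 13.11, 13.35 and 13.25 in treated 5637, and at 4.15, 4.52 and 4.10 in untreated RT112. It overlapped between the treated lines, with treated 5637 higher by 0.16, unlike the single-symbol rows of USP17L4 and USP17L1P. On chromosome 4, the row that lists USP17L10 and USP17L13 was higher in treated 5637 by 0.39, beside 0.37 for USP17L1P. Its lowest treated 5637 array, at 11.2478, lay just below its highest treated RT112 array, at 11.2479. The split by chromosome among the members is therefore not shared by all rows of the family. All 19 rows of the family thus stood higher in treated than in untreated RT112. Of them, 17 are among the 33 transcript-cluster rows with a difference at least as large as that of USP17L15. These 17 include the 6 identical rows, which hold 1 set of values. The 8 members are among them by the choice of that limit, the lowest difference of a member.

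Copies of this family differ by few bases, and probe sequences were not used here, so how many of the 29 genes contributed RNA is uncertain. The deposited values give some measure of how far the rows are separate readings. Besides the 6 identical rows, USP17L12 and USP17L21 deviated from their treated RT112 means by equal amounts in each array, within a tolerance of 0.001, so that USP17L12 exceeded USP17L21 by 0.96 in all 3 arrays. This pair was picked out after its values were seen. It was the 1 pair of 28 with equal deviations in treated RT112, and no pair had them in treated 5637 or untreated RT112. In treated 5637 the offset of USP17L12 over USP17L21 ran from 0.92 to 0.96, and in untreated RT112 from -0.12 to 0.03.

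The spread between replicates was wider in treated RT112 than in treated 5637. The SD of a member lay between 0.21 and 0.44 in treated RT112, between 0.03 and 0.22 in treated 5637, and between 0.06 and 0.24 in untreated RT112. The medians of those SDs were 0.24, 0.04 and 0.16, beside 0.07, 0.06 and 0.09 over all genes tested. In treated RT112 replicate 3 was the highest for 6 of 8 members, as it was for 26.0% of all genes tested, with ties counted to the array of lowest number. USP17L4 went the other way, with its lowest value in replicate 3, 0.49 below its mean. In untreated RT112 replicate 1 was the highest for 6 of 8 members and for 34.0% of all genes. Leaving out any 1 of the 9 arrays kept the median RT112 difference of the members between 7.71 and 7.83.

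**Figure D3:**
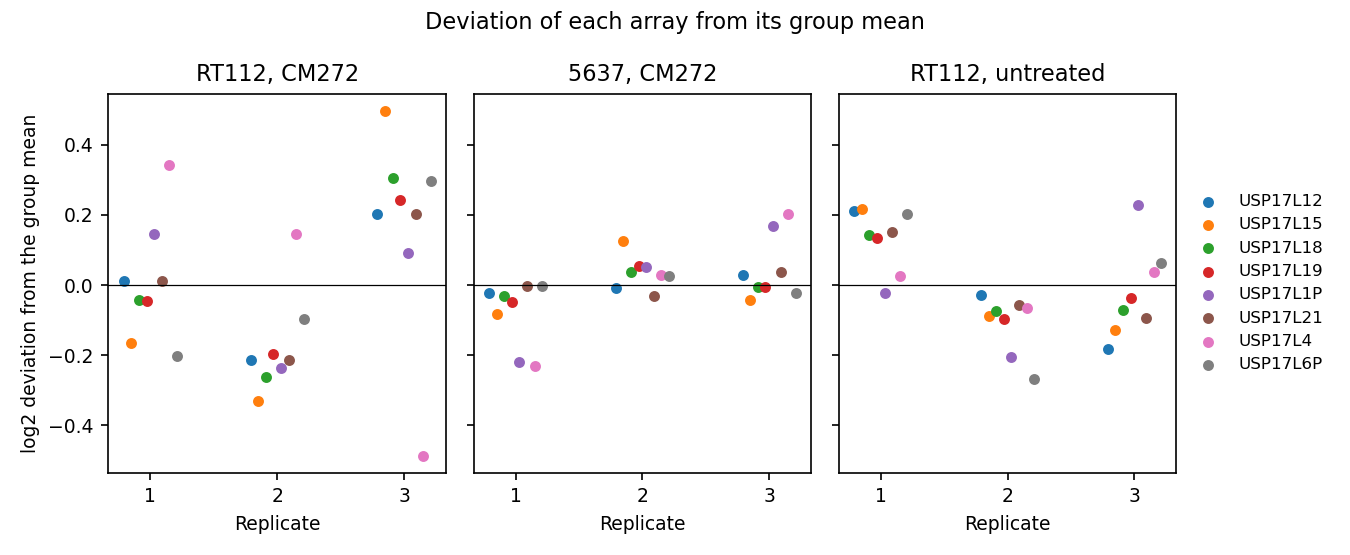
Deviation of each array from its group mean, in log2 units, for the 8 members in the 3 groups. In treated RT112 replicate 3 lies above 0 for 7 members and USP17L4 lies 0.49 below it, and in treated 5637 the points lie between -0.23 and 0.20.

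The median log2 difference of the 8 members in RT112 was 7.79, beside -0.57 over all genes tested. Most genes moved down on the deposited scale. By limma, 85.0% of the 22465 genes were called at an adjusted p below 0.05, 10.8% higher and 74.2% lower in treated RT112. With each array centred on its median, 33.9% were higher and 34.8% lower. Quantile-normalized values gave 33.0% higher and 35.2% lower. In all 3 scalings alike 10.8% were higher and 31.7% lower. The median difference of the members was 8.35 after centring and 8.17 after quantile normalization, so no scaling brought a member near 0. Of the genes tested, 12 differed by at least as much as USP17L15: the 8 members, TEX14, the repeat genes REXO1L1P and REXO1L2P, and LOC392196.

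The genes beside the family give a reading that did not enter the choice of members. In gene order the family forms 4 runs, 1 of 23 genes on chromosome 4 and 3 of 2 genes each on chromosome 8. Within 10 measured genes on either side of each run lie 69 other genes, such as the defensin genes, which encode antimicrobial peptides, and the repeated FAM90A and ZNF705 genes. In treated RT112, 4 of these 69 were called higher by limma and 55 lower as deposited. Quantile-normalized values gave 16 and 22. Held in all 3 scalings were 4 rises (5.80%) and 22 falls (31.9%), beside 10.8% and 31.7% of all genes tested, so the calls show nothing particular to the neighbours. Their median log2 difference was -0.61, beside -0.57 over all genes.

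One neighbour stood with the members. LOC392196, the gene next to USP17L7, is listed as a transcribed pseudogene, and the tables used here do not say of which gene. It stood at 10.76, 10.76 and 10.79 in treated RT112, at 11.44, 11.57 and 11.71 in treated 5637, and at 3.60, 3.50 and 3.29 in untreated RT112. It rose by 7.31 ± 0.09 in RT112 (SE; adjusted p = 5.42e-09, limma). Whether its probes match USP17L copies was not tested. The other 68 neighbours differed by -1.63 to 0.48, and none reached the smallest member difference.

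The 10 defensin genes averaged 3.02 to 4.67 in treated RT112, 3.00 to 4.33 in treated 5637 and 3.53 to 5.89 in untreated RT112. Of these, 10 were called lower on the deposited values and 4 in all 3 scalings. The 7 FAM90A genes averaged 3.73 to 4.19 in treated RT112, 3.73 to 4.12 in treated 5637 and 3.84 to 4.86 in untreated RT112. Of these, 6 were called lower as deposited and 1 in all 3 scalings. Over all genes tested, 74.2% were called lower as deposited and 31.7% in all 3 scalings. As deposited, none of these 17 genes was called higher, beside 10.8% of all genes. FAM90A25P and FAM90A7 were called higher in both other scalings, by 0.61 and 0.45 with quantile-normalized values. The 3 ZNF705 genes, which encode zinc finger proteins, were not called on the deposited values, with differences between -0.18 and -0.01. All 3 were called higher in both other scalings, with differences between 0.48 and 0.66 after quantile normalization. Of all genes, 33.9% were called higher after centring and 33.0% after quantile normalization. Among single-copy neighbours, SH3TC1 fell by 1.30 ± 0.04, GPR78, an orphan receptor gene, fell by 1.29 ± 0.04, and NEIL2, a DNA glycosylase gene of base excision repair, fell by 1.27 ± 0.04. Each of these falls was called in all 3 scalings, but each gene had equal values in a treated group, which tends to lower its SE. After quantile normalization the 3 differences were -0.71, -0.69 and -0.72.

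None of the other deubiquitinase genes of the USP class measured here rose by as much as a member. Of 53 listed genes 50 were measured, of which limma called 4 higher and 37 lower as deposited and 15 and 17 with quantile-normalized values. Held in all 3 scalings were 4 rises (8.0%) and 15 falls (30.0%), shares near those of all genes. The largest rise was that of USP11, whose enzyme acts on the TGF-beta type I receptor. USP11 stood at 11.53 ± 0.07 in treated RT112, 11.10 ± 0.02 in treated 5637 and 8.51 ± 0.03 in untreated RT112 (SD, n = 3 each). It rose by 3.03 ± 0.04 in RT112 (adjusted p = 5.42e-09, limma). The other 3 called higher in all scalings were CYLD, a negative regulator of NF-kB signalling, at 0.50 ± 0.04, USP5 at 0.35 ± 0.12 and USP20 at 0.20 ± 0.05, named here because the count is small. USP14, which encodes a deubiquitinase of the proteasome, fell by 1.74 ± 0.05 to 8.19 in treated RT112, against 9.93 in untreated RT112, and stood at 9.44 in treated 5637. USP31 fell by 1.91 ± 0.08 and USP40 fell by 1.35 ± 0.06. After quantile normalization the differences of USP14, USP31 and USP40 were -1.42, -1.51 and -0.91.

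**Figure D4:**
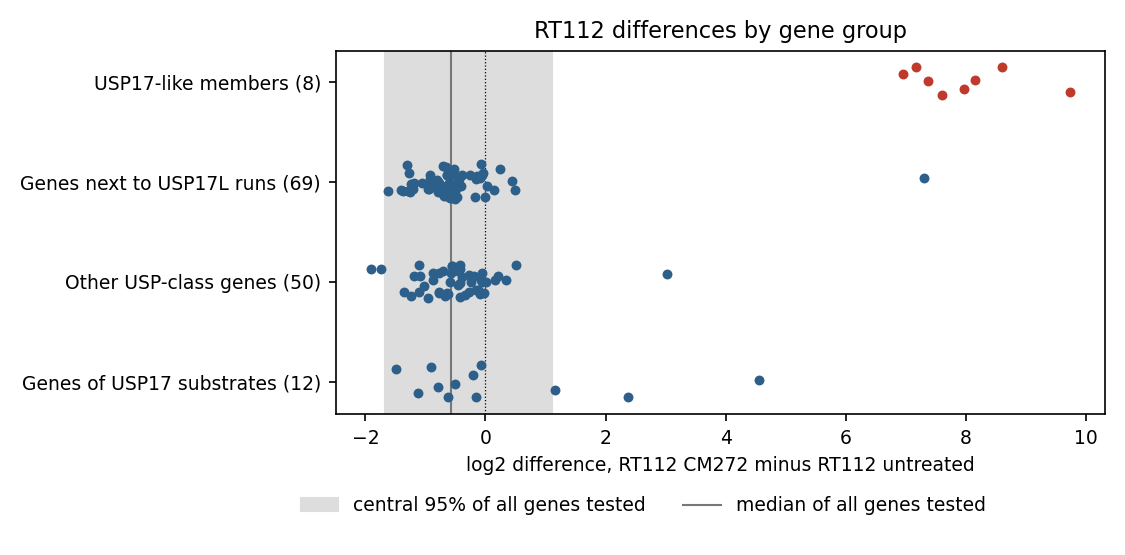
Log2 difference between treated and untreated RT112 (horizontal axis) for each gene of 4 groups, with the central 95% of all genes tested in grey (-1.67 to 1.10). The 8 members lie between 6.96 and 9.73, and of the 69 neighbours LOC392196 alone lies among them, at 7.31.

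The enzymes act on proteins, and the arrays measured the RNA of those proteins' genes only. Of 15 genes of proteins reported to be deubiquitinated by or to act with USP17 or DUB3, 12 were measured, of which limma called 3 higher and 6 lower as deposited and 5 and 4 with quantile-normalized values. Held in all 3 scalings were 3 rises (25.0%) and 4 falls (33.3%), beside 10.8% and 31.7% of all genes. The list was drawn up with earlier results on some of its genes known. CDC25A averaged 6.34 ± 0.13 in treated RT112, 6.07 in each array of treated 5637 and 6.97 ± 0.19 in untreated RT112. Its difference in RT112 was -0.63 ± 0.10 on the deposited values (adjusted p = 0.0003353, limma) and -0.095 with quantile-normalized values, and it was not called in all 3 scalings. RCE1 likewise was called lower on the deposited values alone, with a difference of -0.50 ± 0.07 there and 0.06 after centring.

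The 3 genes that rose in all scalings were SNAI1, RIGI and MCL1. SNAI1, a transcription factor gene of epithelial-mesenchymal transition, stood at 8.46 ± 0.56 in treated RT112, 6.95 ± 0.08 in treated 5637 and 3.92 ± 0.19 in untreated RT112. RIGI, a cytosolic sensor of viral RNA, stood at 8.54 ± 0.19 in treated RT112, 10.80 in each array of treated 5637 and 6.17 ± 0.09 in untreated RT112. MCL1, which opposes cell death, stood at 10.09 ± 0.07 in treated RT112, 10.02 ± 0.05 in treated 5637 and 8.94 ± 0.12 in untreated RT112. Treated 5637 minus treated RT112 was -1.52 for SNAI1, 2.26 for RIGI and -0.07 for MCL1. CCNA2, the cyclin A2 gene, and GMNN, which encodes the replication inhibitor geminin, fell by 1.49 ± 0.11 and fell by 1.12 ± 0.10 in RT112, with differences of -1.36 and -0.81 after quantile normalization. HDAC2 and TRAF3 were the other 2 called lower in all scalings, with TRAF3 at -0.79 ± 0.05 as deposited and -0.20 with quantile-normalized values.

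Genes active in the germline or in early embryos, where repeat genes can be expressed, differed by -0.91 to -0.08 as deposited. Of 6 listed genes 5 were measured, DDX4, DAZL, ZSCAN4, DUXA and LEUTX. They averaged 3.40 to 4.51 in treated RT112, 3.25 to 4.19 in treated 5637 and 3.85 to 4.83 in untreated RT112. As deposited, limma called 0 of them higher and 4 lower, and with quantile-normalized values 1 higher and 1 lower. Held in all 3 scalings were 0 rises and 1 fall among the 5, beside 10.8% and 31.7% of all genes, and as deposited 74.2% of all genes were lower, so these calls show nothing particular to the list. Of the genes of the compound's targets, EHMT2 averaged 6.42 in treated RT112, 6.69 in treated 5637 and 7.21 in untreated RT112, and DNMT1 10.27, 10.29 and 10.24. DNMT3A averaged 5.43, 6.36 and 6.11 in these groups and DNMT3B 5.86, 5.69 and 5.88.

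Likeness to the family was measured by Pearson's r over the 9 arrays between a gene and the mean of the 8 members, among the 1877 genes outside the family whose values spanned at least 2 log2 units. The points fall into 3 groups of replicates, so r mainly reflects how close the treated lines lie to each other, and it is given as a description. The 5 closest genes were DLL4, which encodes a Notch ligand, with r = 0.999, the histone gene H2AC6 and MICB, which encodes a ligand of the receptor NKG2D, both with r = 0.998, and LOC392196 and RND1, both with r = 0.997. Values of r of at least 0.99 were reached by 36 of the 1877 genes. The members themselves had r between 0.989 and 1.000 with their mean, the lowest being USP17L4.

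Apart from LOC392196, these genes differed by less in RT112 than any member. DLL4 stood at 8.09, 7.88 and 8.27 in treated RT112, at 8.15, 8.20 and 8.32 in treated 5637, and at 4.48, 4.51 and 4.49 in untreated RT112. Like 5 of the chromosome 4 members, its treated RT112 arrays ran lowest in replicate 2 and highest in replicate 3. RND1 stood at 11.09, 10.29 and 10.82 in treated RT112, at 11.16, 11.32 and 11.59 in treated 5637, and at 4.28, 4.29 and 4.06 in untreated RT112. The log2 differences in RT112 were 3.59 ± 0.09 for DLL4, 4.74 ± 0.11 for H2AC6, 2.56 ± 0.05 for MICB and 6.52 ± 0.20 for RND1. Between treated lines, 5637 exceeded RT112 by 0.15 ± 0.09 for DLL4, by 0.42 ± 0.11 for H2AC6, by 0.28 ± 0.05 for MICB and by 0.62 ± 0.20 for RND1.

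**Figure D5:**
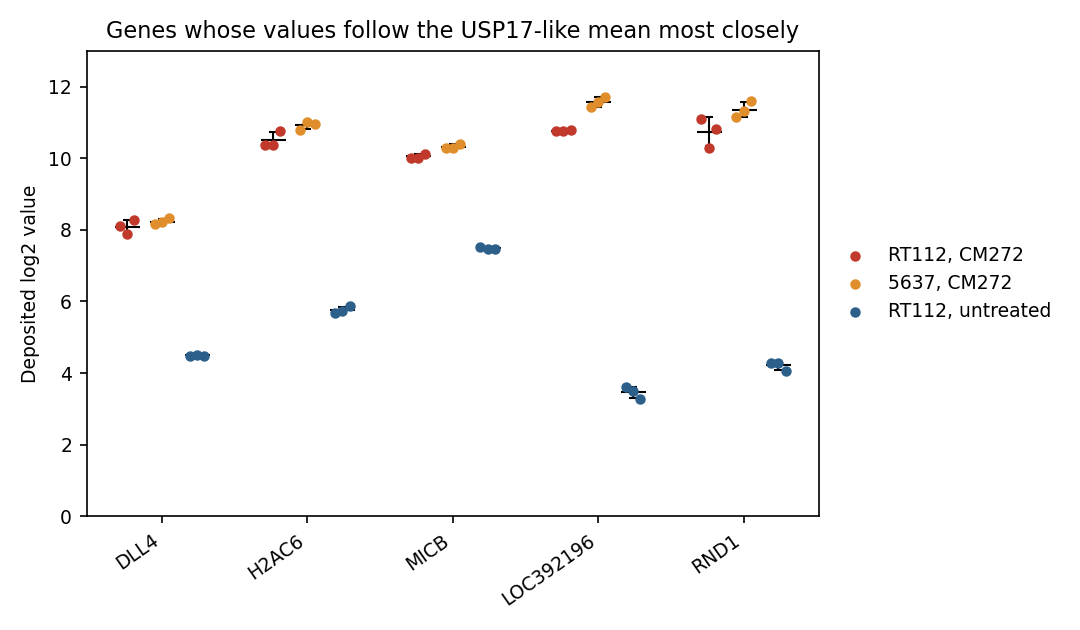
Deposited log2 values (vertical axis) of the 5 genes with the highest r to the mean of the members, with 3 points per group and the mean and SD in black. In each the treated RT112 and treated 5637 arrays stand above untreated RT112, by 2.56 log2 units in RT112 for MICB and by 7.31 for LOC392196.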

How the data were processed

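The authors deposited log2 values of 70523 rows for 12 arrays, and the submitters' processing notes name RMA and Affymetrix Expression Console for them. No genome build is stated, and positions are therefore not printed. GEO's platform annotation named the genes, and RefSeq (GRCh38.p14) gave gene types, chromosomes and gene order. Where a gene had several rows, the brightest over the 9 arrays was taken. The fit used limma 3.58.1 (R 4.3.3) on 3 group means (9 arrays, 6 residual degrees of freedom, Benjamini-Hochberg adjustment over 22465 genes, threshold 0.05). Every SE is limma's. Precision is limited by 3 arrays per group. The members and gene lists were chosen with earlier results of these data known. Each list was named by its 4 smallest adjusted p and by changes of at least 4-fold. Genes outside that rule are also named, such as CDC25A, RCE1, CCNA2, GMNN, HDAC2, CYLD, USP5 and USP20. The test was checked on simulated data with independent noise, few changed genes and no shift between arrays. It recovered 95% of genes changed by 1 log2 unit and 99% of those changed by 2, with 7 false calls. The deposited values differ from that setting, so the check does not vouch for the calls made on them. Alternatives were median centring, quantile normalization, other sets of arrays and genes, row averaging, an intensity trend, a replicate block and leaving out each array.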

Additional observations from a re-analysis of the deposited data

Results flagged for a closer look

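Rows without a gene in the annotation also held large differences. Of the 33 transcript-cluster rows that differed between treated and untreated RT112 by at least as much as USP17L15, 11 had no gene symbol. One of them stands next to the USP17L21 row in the table. It averaged 15.02 ± 0.43 in treated RT112, 15.26 ± 0.09 in treated 5637 and 4.93 ± 0.08 in untreated RT112 (SD, n = 3 each), a log2 difference in RT112 of 10.09.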

How the results depend on the processing

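All 8 members stayed higher in treated RT112 under each of the 18 alternatives, by 6.71 to 10.29. They were chosen for this rise, so its persistence is no support for it. Only the 2 other scalings and leaving out an RT112 array could move these differences. The remaining alternatives leave the members' RT112 differences unchanged by construction. The median difference of the members, 7.79, became 8.35 with centred arrays and 8.17 after quantile normalization. Leaving out single arrays gave -0.088 (without treated RT112 replicate 2) to 0.144 (without replicate 3) for the median between treated lines, beside 0.020 with all. Of 69 neighbours, 59 were called as deposited and 38 with quantile-normalized values. Among genes above the median level, 9143 of 11232 genes were called (2117 higher and 7026 lower), and 9 of 12 neighbours, fewer genes being tested by construction. All 8 members passed that filter, through the groups in which they are high. A replicate block gave 18894 calls beside 19093. Same-numbered arrays did not deviate together (r between -0.09 and 0.04), which gives no sign of pairing but cannot exclude it. The block changed no call count by over 1.5 times. Of 354 alternative values of single genes, 338 kept call and direction or moved by less than 1 SD, 16 moved further and 0 reversed. The 16 are the members' values under the 2 other scalings. Members carry no call, whereas other genes counted as kept when call and direction held, even where the size moved. With centred arrays TRAF3 went from -0.79 to -0.23, SH3TC1 from -1.30 to -0.74 and MCL1 from 1.15 to 1.71. No sequence, detection call or usable untreated 5637 value was available for the members, which limits what their levels mean.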
